A study of Mus musculus with 8 samples.

Results

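The epidermal growth factor (EGF) receptor family and its ligands were followed as 9 genes in Lgr5-traced cells of mouse skin. They comprised the receptor genes Egfr, Erbb2 and Erbb3 and the ligand genes Areg, Ereg, Hbegf, Tgfa, Btc and Epgn. They were chosen by name, with earlier results of these data known. All 9 were found among the 46078 genes of the deposited count table. All 9 passed the filter on low counts and were among the 17748 genes tested.

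Each of 8 RNA sequencing libraries held cells that carry the genetic trace of Lgr5, a marker of hair follicle stem cells, sorted from the epidermis after injury of the skin barrier. In 4 libraries regulatory T cells (Treg cells) were missing (Treg-depleted, letters A to D), and in 4 they were present (Treg-sufficient, letters A to D). Letters C and D of either condition belong to experiment 2, and letters A and B to experiment 1. All 8 share the reporter genotype Lg5-egfp-ires-creert2/R26-tdTomato, spelled as labelled, and the injury, so no uninjured skin is part of any comparison. In this genotype an inducible Cre recombinase is made from the Lgr5 locus and turns on a red fluorescent protein, so the descendants of Lgr5-expressing cells are labelled too. Neither the way Treg cells were removed, nor the mice's age, nor the time since injury is stated in the labels. Whether each library is a separate animal is not stated either, so p-values measure the spread between these libraries, part of which may be technical.

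Totals over genes ran from 22330729 to 29975347 counts. The follicle and basal keratinocyte markers Lgr5 (289 to 539 CPM, counts scaled to the library total), Krt5, Krt14 and Krt15 (2421 to 12166 CPM) were high in every library, which fits the labelled cell type. Some libraries stood apart. Xist, an RNA of the inactive X chromosome, was at 72.0 CPM in Treg-depleted library B and 2713 CPM in Treg-sufficient library B, against 0.967 to 2.26 CPM in the other 6 libraries. Summed CPM of 4 Y-linked genes was 2.84 in Treg-sufficient library B and 314 to 417 in the other 7. Treg-sufficient library B thus had a female pattern, and Treg-depleted library B held both Xist and Y-linked RNA. Both are of experiment 1, and the part of sex in its values was not tested. Treg-depleted library B and Treg-sufficient library C held counts for the fewest genes (18605 and 19593, against up to 23062). Foxp3, the defining transcription factor of Treg cells, was at 0 to 0.709 CPM where Treg cells were depleted and at 0.150 to 0.807 CPM where they were present, so sorted follicle cells give no check of the depletion.

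EGF-like ligands are made as membrane-bound precursors that proteases such as ADAM17 cut from the cell surface. The freed ligand binds EGFR, which pairs with itself or with ERBB2 or ERBB3 and signals through the RAS-ERK and PI3K pathways. In skin this system drives the growth and migration of keratinocytes, takes part in wound closure and shapes the hair cycle, and keratinocytes make several of the ligands themselves.

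Of the ligand genes, 4 lie next to each other on chromosome 5. In GRCm38 coordinates Epgn (91027464 to 91035215, plus strand), Ereg (91074622 to 91093646, plus), Areg (91139599 to 91148432, plus) and Btc (91357261 to 91402994, minus) are the only protein-coding genes in a span of 375.5 kb. Tgfa lies on chromosome 6 (86195223 to 86275719, plus). Of the receptor genes, Egfr (16752203 to 16918158, plus) and Erbb2 (98412470 to 98437716, plus) lie on chromosome 11 and Erbb3 on chromosome 10 (128567523 to 128589652, minus). Erbb2 overlaps Mien1 on the other strand, and Egfr, Ereg and Tgfa also overlap genes on the other strand (Egfros, Gm19610 and Gm43917). No source used here states the strand setting of the counting, so reads from such pairs may not be fully told apart.

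The promoters of Areg, Epgn and Tgfa are shown because these are the ligand genes with the lowest adjusted p in the comparison of the experiments. RefSeq's table for GRCm38.p6 held promoters of 6 of the 9 genes (Egfr, Erbb2, Areg, Tgfa, Btc and Epgn), each with 250 bases before and 50 after the start. Each line runs 5′ to 3′ on the plus strand, at chr5:91139349-91139648 for Areg, chr5:91027267-91027566 for Epgn and chr6:86194972-86195271 for Tgfa. Capitals mark a match to a searched motif.
Areg: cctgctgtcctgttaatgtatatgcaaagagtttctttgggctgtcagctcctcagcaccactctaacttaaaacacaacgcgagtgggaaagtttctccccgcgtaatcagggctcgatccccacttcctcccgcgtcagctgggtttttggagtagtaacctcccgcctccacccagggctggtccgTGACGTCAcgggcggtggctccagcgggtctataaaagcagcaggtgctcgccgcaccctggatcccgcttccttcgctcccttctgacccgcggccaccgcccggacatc
Epgn: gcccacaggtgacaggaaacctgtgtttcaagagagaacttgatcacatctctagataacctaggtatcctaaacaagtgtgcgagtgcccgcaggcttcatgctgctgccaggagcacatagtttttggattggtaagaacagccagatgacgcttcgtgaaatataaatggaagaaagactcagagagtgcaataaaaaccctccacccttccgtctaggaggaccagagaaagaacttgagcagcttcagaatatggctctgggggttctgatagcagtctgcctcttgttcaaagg
Tgfa: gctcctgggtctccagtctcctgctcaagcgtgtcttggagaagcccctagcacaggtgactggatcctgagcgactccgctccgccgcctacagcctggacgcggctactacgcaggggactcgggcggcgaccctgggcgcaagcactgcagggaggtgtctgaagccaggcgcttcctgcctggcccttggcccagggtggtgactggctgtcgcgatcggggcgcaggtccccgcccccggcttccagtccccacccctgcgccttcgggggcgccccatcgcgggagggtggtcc

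The motifs searched, on both strands, were the AP-1 site TGANTCA, the cAMP response element TGACGTCA and the TEAD site GGAATG, none of which overlaps another in these windows. Areg held TGACGTCA, its first base 61 bases before the start, and Epgn and Tgfa held none of the motifs. Among the other 3 promoters, Erbb2 held GGAATG 88 bases before its start. Over all 32851 promoters of the table, TGANTCA was in 7.81%, TGACGTCA in 1.79% and GGAATG in 14.7%. A match describes the letters only.

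To compare genes, levels were divided by the merged exon length (RPKM). The receptors stood highest on average, with mean levels over the 8 libraries of 32.7 ± 4.52 RPKM for Egfr, 25.4 ± 2.66 RPKM for Erbb2 and 25.4 ± 3.55 RPKM for Erbb3 (SD, n = 8). Erbb2 and Erbb3 did not differ beyond their spread. Among the ligands, Epgn led on average at 15.2 ± 12 RPKM, followed by Areg at 5.87 ± 6.50 RPKM and Tgfa at 5.70 ± 2.99 RPKM. In Treg-depleted library B Epgn (36.6 RPKM) exceeded Egfr (26.0 RPKM). Areg and Tgfa overlapped widely, and Areg stood below Tgfa in Treg-depleted libraries A, C and D and in Treg-sufficient libraries B, C and D. Hbegf averaged 1.99 ± 1.18 RPKM, Ereg 0.555 ± 0.403 RPKM and Btc 0.201 ± 0.0808 RPKM. Btc rested on 12 to 43 counts per library and Ereg on 23 to 159, against 6235 to 12735 for Egfr.

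**Figure D1:**
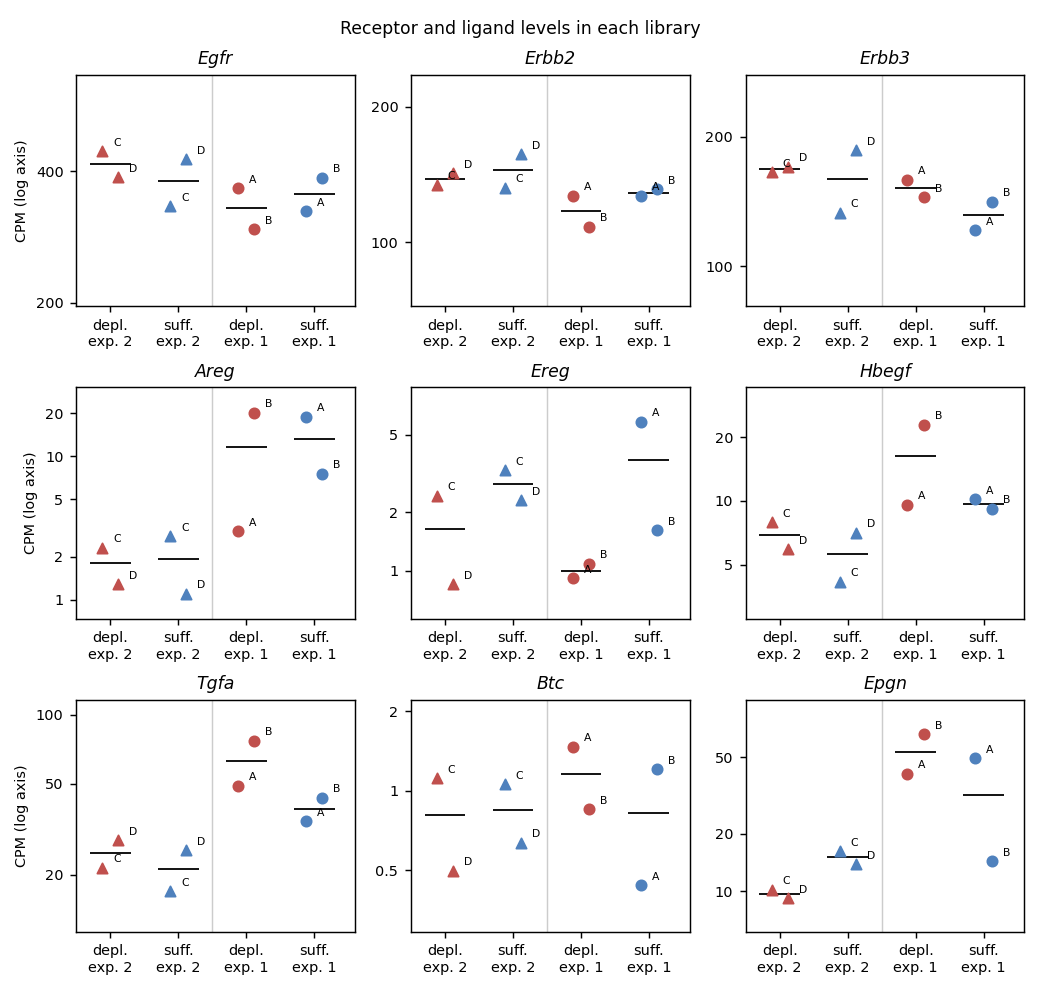
Level of each gene in each library in CPM, with a log axis and a separate scale per panel; red is Treg-depleted, blue Treg-sufficient, triangles experiment 2, circles experiment 1, letters the libraries and bars the mean of 2. Receptors stay within narrow ranges in all groups, while every ligand, Ereg and Btc included, has its highest value in a library of experiment 1.

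Between Treg-depleted and Treg-sufficient libraries, none of the 9 genes was called. This comparison asked whether the absence of Treg cells changes the genes by which follicle cells send and receive EGF-like signals after injury. The receptors lay at similar levels in both conditions, Hbegf and Tgfa averaged higher in Treg-depleted libraries without passing the test, and Ereg averaged lower. The test was edgeR's quasi-likelihood test with the experiment as a term and p-values adjusted over all 17748 genes (Benjamini-Hochberg). It called 0 of 9 genes, where 0% of all genes were called, and 1 of 9 had an unadjusted p under 0.05, against 6.99% of all genes. In no gene did the 4 libraries of one condition all lie on one side of the other 4, which 1.28% of all genes did below and 1.07% above. DESeq2 called 0 of 9, with 87 genes called in all, and limma-voom 0 of 9, with 0 genes called in all. In sorted bulk cells, a lower level can come from fewer cells of a type or from less RNA per cell, and these cannot be told apart.

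Egfr encodes the receptor that binds all the ligands followed here. It was at 366, 295, 444 and 388 CPM in Treg-depleted libraries A to D and at 324, 387, 333 and 426 CPM in Treg-sufficient libraries A to D. The highest library was Treg-depleted C and the lowest Treg-depleted B, so the range of one condition held that of the other. The fitted log2 fold change was 0.01 (SE 0.13, edgeR adjusted p = 0.991), from means of 373 ± 61.6 CPM in Treg-depleted libraries, against 367 ± 47.8 CPM in Treg-sufficient libraries (SD, n = 4 each).

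Erbb2 encodes a receptor with no known ligand that serves as a partner of the others. Its levels were 127, 108, 134 and 142 CPM in Treg-depleted libraries A to D, against 127, 131, 132 and 157 CPM in Treg-sufficient libraries A to D. The conditions overlapped, with a log2 fold change of -0.10 (SE 0.10, edgeR adjusted p = 0.837). Erbb3, a receptor for neuregulins with a weak kinase that recruits PI3K, was at 159, 145, 165 and 170.5 CPM in Treg-depleted libraries A to D and at 121, 141, 133 and 186 CPM in Treg-sufficient libraries A to D. Treg-sufficient library D was the highest of the 8 for both Erbb2 and Erbb3. For Erbb3 the log2 fold change was 0.14 (SE 0.12, edgeR adjusted p = 0.812).

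Areg encodes amphiregulin, a low-affinity EGFR ligand that keratinocytes and, in repairing tissue, Treg cells are known to make. It was at 3.0, 20.2, 2.31 and 1.28 CPM in Treg-depleted libraries A to D. In Treg-sufficient libraries A to D it was at 18.9, 7.55, 2.76 and 1.10 CPM. Treg-depleted library B and Treg-sufficient library A were far above the rest, and both conditions ran from just above 1 to about 20 CPM. The log2 fold change was -0.15 (SE 0.58, edgeR adjusted p = 0.967).

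Ereg encodes epiregulin, a ligand of EGFR and ERBB4. It was at 0.920, 1.09, 2.43 and 0.852 CPM in Treg-depleted libraries A to D, against 5.82, 1.62, 3.29 and 2.31 CPM in Treg-sufficient libraries A to D. All Treg-depleted libraries but C lay below all Treg-sufficient libraries. With a log2 fold change of -1.32 (SE 0.51), Ereg was the gene with an unadjusted p under 0.05, but its edgeR adjusted p was 0.708. Without the filter on low counts edgeR called it (adjusted p = 0.0358), but that setting called 820 genes in this comparison, against 0 with the filter. Leaving out single libraries gave -1.81 to -0.73.

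Hbegf encodes heparin-binding EGF-like growth factor, a ligand that keratinocytes release at wound edges, from chromosome 18 (36504927 to 36515805, minus strand). It was at 9.58, 22.9, 7.94 and 5.93 CPM in Treg-depleted libraries A to D and at 10.2, 9.20, 4.16 and 7.09 CPM in Treg-sufficient libraries A to D. Treg-depleted library B held the highest value by far, and the other 7 lay between 4.16 and 10.2 CPM. The log2 fold change was 0.52 (SE 0.30, edgeR adjusted p = 0.731) and turned to -0.03 without Treg-depleted library B and Treg-sufficient library C.

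Tgfa encodes transforming growth factor alpha, an EGFR ligand of keratinocytes whose loss gives mice a wavy coat. It was at 48.9, 77.0, 21.5 and 28.4 CPM in Treg-depleted libraries A to D, against 34.2, 43.3, 17.0 and 25.7 CPM in Treg-sufficient libraries A to D. The Treg-depleted libraries of experiment 1 were the 2 highest of all 8, while the conditions as a whole overlapped. The log2 fold change was 0.46 (SE 0.21, edgeR adjusted p = 0.717).

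Btc encodes betacellulin, a ligand of EGFR and ERBB4. It was at 1.47, 0.851, 1.12 and 0.497 CPM in Treg-depleted libraries A to D and at 0.439, 1.21, 1.06 and 0.636 CPM in Treg-sufficient libraries A to D. These values are at the edge of what could be measured, overlapped fully and gave a log2 fold change of 0.22 (SE 0.50, edgeR adjusted p = 0.943). Epgn encodes epigen, a low-affinity EGFR ligand of epithelia. It was at 41.0, 66.1, 10.2 and 9.23 CPM in Treg-depleted libraries A to D and at 49.3, 14.4, 16.2 and 13.9 CPM in Treg-sufficient libraries A to D. Its 3 highest libraries, Treg-depleted B and A and Treg-sufficient A, were all of experiment 1, and both conditions spanned a wide range. The log2 fold change was 0.07 (SE 0.41, edgeR adjusted p = 0.980) and turned to -0.50 without both B libraries.

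**Figure D2:**
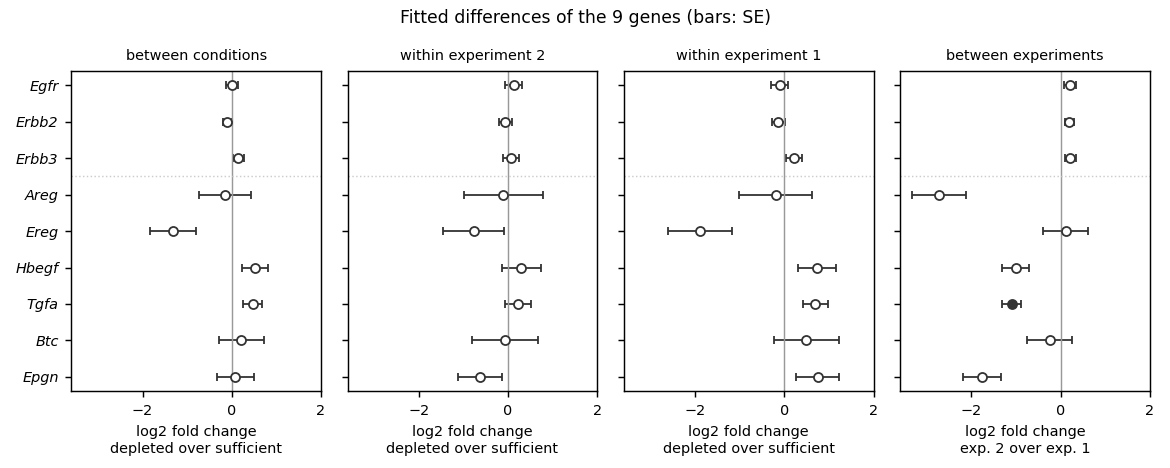
Fitted log2 fold changes of the 9 genes with SE bars in 4 comparisons, Treg-depleted over Treg-sufficient in the first 3 panels and experiment 2 over experiment 1 in the last; a filled point has an edgeR adjusted p under 0.05. Tgfa between experiments (-1.10) is the filled point, and the receptors lie near 0 in all panels.

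Within each experiment, taken by itself, none of the 9 genes was called either. In experiment 2 the call count was 0 of 9, with 0% of all genes called, and 0 of 9 had an unadjusted p under 0.05, against 1.71% of all genes. In experiment 1 it was 0 of 9, with 0.687% of all genes called, and 2 of 9 (Ereg and Tgfa) had an unadjusted p under 0.05, against 10.6% of all genes. DESeq2 and limma-voom called 0 of 9 in either experiment. Over all genes DESeq2 called 3 in experiment 2 and 722 in experiment 1, and limma-voom called 0 and 89. Each group holds 2 libraries here, and the 4 groups share an estimate of the spread. With 2 libraries against 2, groups that do not overlap are common. In experiment 2 both Treg-depleted libraries lay below both Treg-sufficient libraries in 16.7% of all genes and above them in 15.9%, and in experiment 1 below in 20.7% and above in 16.4%.

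Epgn was the gene whose fitted values in the experiments lay farthest apart on opposite sides of 0. In experiment 2 both Treg-depleted libraries (10.2 and 9.23 CPM) lay below both Treg-sufficient libraries (16.2 and 13.9 CPM), with a log2 fold change of -0.63 (SE 0.50, edgeR adjusted p = 1). In experiment 1 the Treg-depleted libraries (41.0 and 66.1 CPM) lay on either side of Treg-sufficient library A (49.3 CPM) and above library B (14.4 CPM), with 0.75 (SE 0.49, edgeR adjusted p = 0.693). The difference of the effects, experiment 2 minus experiment 1, was -1.38 (SE 0.70, edgeR adjusted p = 0.964). The interaction called 0 of 9 genes, with 0% of all genes called, and 0 of 9 had an unadjusted p under 0.05, against 5.47% of all genes. Without the filter on low counts it called Epgn (edgeR adjusted p = 0.00382), but 534 genes were then called, against 0 with the filter.

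Ereg was lower in the Treg-depleted libraries of either experiment by its fitted value. In experiment 2 its log2 fold change was -0.77 (SE 0.69, edgeR adjusted p = 1). In experiment 1, where both Treg-depleted libraries lay below both Treg-sufficient libraries, it was -1.89 (SE 0.72, edgeR adjusted p = 0.380). That value rested on Treg-sufficient library A, and leaving out single libraries gave -2.54 to -0.68.

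Tgfa had 0.23 in experiment 2 (SE 0.29, edgeR adjusted p = 1) and 0.70 in experiment 1 (SE 0.29, edgeR adjusted p = 0.438), where both Treg-depleted libraries lay above both Treg-sufficient libraries. Hbegf had 0.30 in experiment 2 (SE 0.43) and 0.74 in experiment 1 (SE 0.43), both on the log2 scale and neither called. Without both B libraries the value of Hbegf in experiment 1 was -0.09 and that of Epgn was -0.26. Areg (-0.10 in experiment 2 and -0.20 in experiment 1) and Btc (-0.07 in experiment 2 and 0.50 in experiment 1) had SEs of 0.73 to 0.90. The receptors ran from -0.07 to 0.13 in experiment 2 and from -0.13 to 0.21 in experiment 1, with SEs of 0.15 to 0.19.

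The largest log2 fold change of the 9 genes, that of Areg, lay between the experiments. Tgfa was lower in experiment 2, and Areg, Epgn and Hbegf had log2 fold changes of -1.0 or below that did not pass the test. The 3 receptors had small positive values. By edgeR 1 of 9 genes was called, with 1.56% of all genes called, and 4 of 9 had an unadjusted p under 0.05, against 21.1% of all genes. All 4 were lower in experiment 2, as were 10.2% of all genes at that threshold. DESeq2 called 4 of 9 (Areg, Hbegf, Tgfa and Epgn), where it called 13.2% of the 16371 genes it tested, and limma-voom called 1 of 9 (Tgfa), against 1.7% of all genes. The labels give the experiment as a number only, so whatever else came with an experiment cannot be told apart from it.

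Tgfa fell to 23.1 ± 4.99 CPM in experiment 2, against 50.9 ± 18.4 CPM in experiment 1 (SD, n = 4 each). Its log2 fold change was -1.10 (SE 0.21, edgeR adjusted p = 0.0487), or 2.14-fold lower. All 4 libraries of experiment 2 (17.0 to 28.4 CPM) lay below all 4 of experiment 1 (34.2 to 77.0 CPM), which held within either condition. The call was close to the threshold. It was kept without Treg-sufficient library A (adjusted p = 0.0341) and lost without any other single library (0.0549 to 0.153), without both B libraries (log2 fold change -0.83, adjusted p = 0.211) and without the 2 libraries with the fewest genes (-0.78, adjusted p = 0.107).

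Areg averaged 1.86 ± 0.802 CPM in experiment 2 and 12.4 ± 8.44 CPM in experiment 1 (SD, n = 4 each). Its log2 fold change of -2.73 (SE 0.61, edgeR adjusted p = 0.0595) was the largest of the 9 in size. All 4 libraries of experiment 2 lay below all 4 of experiment 1, but by little, with 2.76 CPM in Treg-sufficient library C of experiment 2 and 3.0 CPM in Treg-depleted library A of experiment 1. Leaving out single libraries gave -3.07 to -2.05.

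Epgn averaged 12.4 ± 3.26 CPM in experiment 2 and 42.7 ± 21.6 CPM in experiment 1 (log2 fold change -1.77, SE 0.42, edgeR adjusted p = 0.0672). Treg-sufficient library B of experiment 1 (14.4 CPM) lay within the range of experiment 2, so the experiments overlapped. Without both B libraries Epgn was called (-1.90, edgeR adjusted p = 0.0243). Hbegf averaged 6.28 ± 1.63 CPM in experiment 2 and 13.0 ± 6.63 CPM in experiment 1 (-1.01, SE 0.30, edgeR adjusted p = 0.0995). Its experiments did not overlap, and without the 2 libraries with the fewest genes its log2 fold change was -0.46. In all, 3 of 9 genes (Areg, Hbegf and Tgfa) lay entirely lower in experiment 2, against 5.76% of all genes, and 1 of 9 (Erbb2) entirely higher, against 6.94%.

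Ereg and Btc had fitted values closer to 0. Ereg averaged 2.22 ± 1.01 CPM in experiment 2 and 2.36 ± 2.32 CPM in experiment 1, with a log2 fold change of 0.12 (SE 0.51, edgeR adjusted p = 0.931). Btc averaged 0.828 ± 0.308 CPM in experiment 2 and 0.991 ± 0.446 CPM in experiment 1 (-0.25, SE 0.50, edgeR adjusted p = 0.841). The 4 neighbours on chromosome 5 thus did not share an order of libraries. Areg and Epgn were highest in Treg-depleted library B and next highest in Treg-sufficient library A, Ereg was highest in Treg-sufficient library A and next in C, and Btc was lowest in Treg-sufficient library A.

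The receptor levels were 398 ± 49.0 CPM in experiment 2 and 343 ± 41.2 CPM in experiment 1 for Egfr, with a log2 fold change of 0.21 (SE 0.13, edgeR adjusted p = 0.413). Erbb2 stood at 141 ± 11.3 CPM in experiment 2 and 123 ± 10.1 CPM in experiment 1 (0.20, SE 0.10, edgeR adjusted p = 0.290). Erbb3 stood at 164 ± 22.2 CPM in experiment 2 and 142 ± 15.5 CPM in experiment 1 (0.21, SE 0.12, edgeR adjusted p = 0.369). Ligand levels varied more between libraries than receptor levels, but several ligands rested on few counts, where sampling noise is larger. Btc had 12 to 43 counts per library, Ereg 23 to 159 and Areg 33 to 515, against 2293 to 12735 for the receptors. The part of this noise in the ratios below was not tested. Over all 8 libraries the highest level was 1.45 to 1.53 times the lowest for the 3 receptors, 3.34 times for Btc, 4.54 times for Tgfa, 5.50 times for Hbegf, 6.83 times for Ereg, 7.16 times for Epgn and 18.3 times for Areg.

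Summed over the 6 ligands, the level was 13.3 and 12.1 RPKM in Treg-depleted libraries C and D and 15.8 and 14.7 RPKM in Treg-sufficient libraries C and D of experiment 2. In experiment 1 it was 35.2 and 70.2 RPKM in Treg-depleted libraries A and B and 51.7 and 23.4 RPKM in Treg-sufficient libraries A and B. Every library of experiment 2 was thus below every library of experiment 1, with means of 14.0 ± 1.61 RPKM in experiment 2 and 45.1 ± 20.4 RPKM in experiment 1. The summed receptor level was 89.5 ± 9.15 RPKM in experiment 2 and 77.5 ± 6.36 RPKM in experiment 1 (SD, n = 4 each), and its ranges overlapped. Between conditions the ligand sums overlapped too, at 32.7 ± 27.2 RPKM in Treg-depleted and 26.4 ± 17.3 RPKM in Treg-sufficient libraries. These sums are descriptions without a test.

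With merged exon lengths Epgn gave the largest share of the summed ligand RPKM in all 8 libraries (34.0 to 64.4%, mean 49.6%). Tgfa gave 10.2 to 36.2% (mean 22.7%) and was second in Treg-depleted libraries A, C and D and in Treg-sufficient libraries B, C and D. Areg, at 6.18 to 30.0% (mean 16.3%), was second in Treg-depleted library B and Treg-sufficient library A. The share of Areg was 6.18 to 14.4% in experiment 2 and 7.01 to 30.0% in experiment 1. Hbegf gave 4.09 to 12.3%, Ereg 0.375 to 5.06% and Btc 0.188 to 1.86%. With the length of the longest transcript in place of the merged exons, the mean share was 44.0% for Epgn, 27.6% for Tgfa and 11.1% for Hbegf. Tgfa then exceeded Epgn in Treg-depleted library D (41.9% for Tgfa and 35.1% for Epgn) and in Treg-sufficient library B (34.4% for Tgfa and 29.3% for Epgn).

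**Figure D3:**
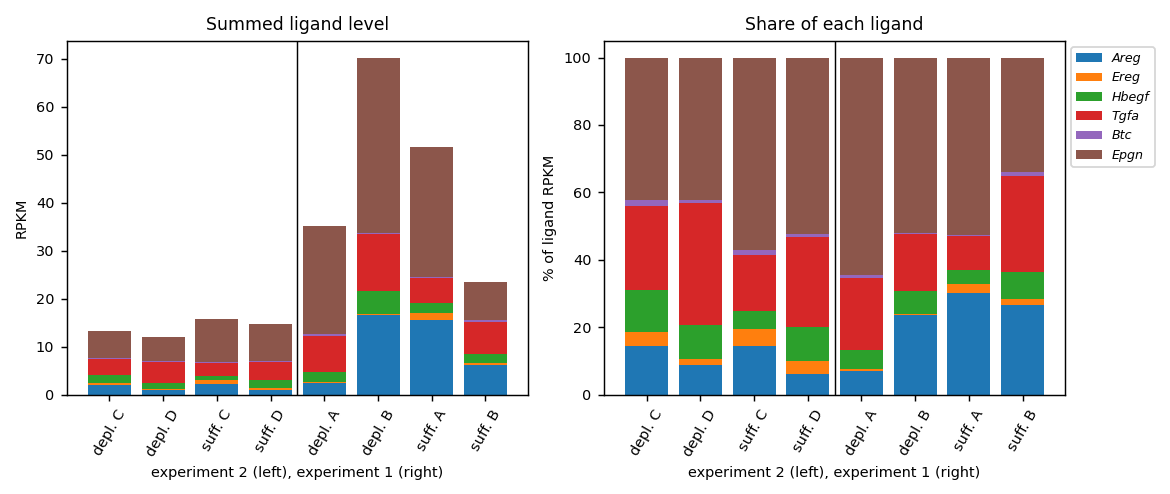
Left, RPKM of the 6 ligands stacked per library, with experiment 2 on the left and experiment 1 on the right; right, each ligand as a percentage of that sum. The stacks of experiment 2 reach 12.1 to 15.8 RPKM and those of experiment 1 reach 23.4 to 70.2 RPKM, with Epgn the largest part in every library at merged exon lengths.

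Markers of other cells and of handling also moved between these libraries. All 8 melanocyte markers summed to 146 to 415 CPM in experiment 2, against 59.0 to 93.3 CPM in experiment 1 (7 of 8 higher, 5 called, median log2 fold change 2.49), led by Dct, Pmel and Tyrp1. Of all genes, 47.5% were higher in experiment 2 by their fitted value and 1.56% were called. Of the mast cell list Kit alone, which melanocytes also express, could be tested. It rose, and Cpa3 and Tpsb2 were at 0 in all libraries. The sum of the 10 follicle and basal keratinocyte markers was 15056 to 19294 CPM in experiment 2 and 18527 to 30206 CPM in experiment 1. Markers of suprabasal epidermis summed to 451 to 956 CPM in experiment 2 and 626 to 1832 CPM in experiment 1. Of the 6 tested, 1 was higher in experiment 2 and 1 was called, with a median log2 fold change of -0.74. The part of these differences in the ligand and receptor values was not tested. Of 10 immediate early genes, which cells also switch on during dissociation, 10 had positive values between conditions and 4 were called within experiment 1. Their sums were 3951 to 8906 CPM in Treg-depleted libraries, against 725 to 3350 CPM in Treg-sufficient libraries. Of all genes, 47.8% had positive values between conditions and 0.687% were called within experiment 1. The part of the immediate early genes in the values of Hbegf, Tgfa and the genes downstream was not tested.

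The other genes of the pathway were read from 5 lists. These were also chosen with earlier results of these data known, so shares of a list set beside all genes are descriptions. Among other ErbB receptors and ligands, 5 of 6 genes were tested and 0 were called in any comparison, where at most 1.56% of all genes were called. Egf, the ligand that gave the family its name, was at 3.31, 3.55, 3.66 and 3.20 CPM in Treg-depleted libraries A to D and at 2.45, 2.59, 2.88 and 2.44 CPM in Treg-sufficient libraries A to D. Every Treg-depleted library lay above every Treg-sufficient library, as was so for 1.07% of all genes, but the difference did not pass (log2 fold change 0.40, SE 0.22, edgeR adjusted p = 0.729). Erbb4, the fourth receptor, had 0 to 12 counts per library, and Nrg3, a neuregulin, had at most 2 counts and was not tested. Nrg1, a neuregulin that binds ERBB3 and ERBB4, averaged 1.20 ± 0.575 CPM in experiment 2 and 3.46 ± 2.31 CPM in experiment 1 (-1.59, SE 0.58, edgeR adjusted p = 0.161). Like Areg, it was highest in Treg-depleted library B (6.24 CPM) and Treg-sufficient library A (4.28 CPM).

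Of 9 genes for the shedding and trafficking of ligands, 1 was called within experiment 1 and 2 between experiments. Of all genes, 0.687% were called within experiment 1 and 1.56% between experiments. Timp3, an inhibitor of ADAM17, was at 270 and 335 CPM in Treg-depleted libraries C and D and at 286 and 338 CPM in Treg-sufficient libraries C and D of experiment 2. In experiment 1 it was at 34.5 and 54.6 CPM in Treg-depleted libraries A and B and at 149 and 133 CPM in Treg-sufficient libraries A and B. Timp3 thus fell in Treg-depleted cells of experiment 1 (log2 fold change -1.66, SE 0.24, edgeR adjusted p = 0.0329) and rose in experiment 2 relative to experiment 1 (1.95, SE 0.33, edgeR adjusted p = 0.0449). On leaving out single libraries the call within experiment 1 was kept without Treg-depleted library A or B and lost without any of the other 6. Libraries of experiment 2 enter that value mainly through the shared estimate of the spread, and without any of them it was -1.65. The call between experiments was kept without Treg-sufficient library A or C and lost without any of the other 6 (up to 0.127).

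Rhbdf2, which encodes a partner that carries ADAM17 to the surface, was at 86.2 to 116 CPM in experiment 2 and at 48.5 to 75.3 CPM in experiment 1. It rose in experiment 2 relative to experiment 1 (0.78, SE 0.15, edgeR adjusted p = 0.0487). The call was kept without Treg-sufficient library A and lost without any other single library (adjusted p up to 0.153) and with upper-quartile factors (0.0526). Adam17 itself was at 89.5 to 107 CPM in Treg-depleted libraries, at 77.6 to 107 CPM in Treg-sufficient libraries and was not called in any comparison. The median of the 9 genes between experiments was -0.06, beside -0.02 over all genes tested.

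Of 23 genes of receptor-proximal signalling, 1 was called, between experiments, where 1.56% of all genes were called. Pik3r1, the regulatory subunit of PI3K, averaged 271 ± 39.5 CPM in experiment 2 and 540 ± 165 CPM in experiment 1 and fell in experiment 2 relative to experiment 1 (-0.97, SE 0.14, edgeR adjusted p = 0.0434). The call was kept without Treg-sufficient library A or C and lost without any other single library (adjusted p up to 0.127). The median of this list lay between -0.02 and -0.01 in the comparisons of conditions, within either experiment and between experiments.

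Of 19 negative regulators, genes that dampen the receptor or ERK, 17 had positive values within experiment 1, against 48.7% of all genes. Their median log2 fold change was 0.37, beside -0.01 over all genes. Of the 19, 3 were called, all higher in Treg-depleted cells, against 0.687% of all genes called. Since the list was chosen with earlier results of these data known, these shares describe it and are no test. Errfi1, a direct inhibitor of EGFR, was at 369 and 302 CPM in Treg-depleted libraries A and B, against 76.7 and 35.3 CPM in Treg-sufficient libraries A and B (2.58, SE 0.32, edgeR adjusted p = 0.0235). Dusp6, a phosphatase that switches ERK off, was at 337 and 422 CPM in Treg-depleted libraries A and B, against 135 and 115 CPM in Treg-sufficient libraries A and B (1.60, SE 0.17, edgeR adjusted p = 0.0127). Spry1, a Sprouty inhibitor of RAS-ERK signalling, had a log2 fold change of 1.29 (SE 0.16, edgeR adjusted p = 0.0219). On leaving out 1 library, the call of Dusp6 was lost without Treg-sufficient library B and that of Errfi1 without Treg-sufficient library C or D. The call of Spry1 was lost without Treg-depleted library C or D or Treg-sufficient library A, B or C. Libraries C and D are of experiment 2 and enter these values mainly through the shared estimate of the spread. Without Treg-sufficient library C the log2 fold changes within experiment 1 were 2.60 for Errfi1 and 1.30 for Spry1.

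In experiment 2 the median of this list was 0.15 and 0 were called, with 0% of all genes called. Errfi1 was at 65.5 and 59.3 CPM in Treg-depleted libraries C and D, against 60.2 and 61.7 CPM in Treg-sufficient libraries C and D. The interaction called 0 of the 19, with 0% of all genes called. Spry2, of the same family as Spry1, had 0.15 in experiment 2 (SE 0.22) and 0.80 in experiment 1 (SE 0.22, edgeR adjusted p = 0.188), where it was called without Treg-depleted library B (1.09, edgeR adjusted p = 0.0190). Lrig1, a membrane inhibitor of EGFR that marks stem cells of the upper follicle, had 0.22 in experiment 2 (SE 0.19) and -0.75 in experiment 1 (SE 0.19, edgeR adjusted p = 0.160), the only value of the named regulators below 0 there.

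Of 10 transcripts that respond to ERK, 9 had positive values within experiment 1, with a median of 1.15, and 2 were called. Of all genes, 48.7% had positive values there, with a median of -0.01, and 0.687% were called. As this list too was chosen with earlier results known, the shares describe it and are no test. Egr1, an immediate early transcription factor, was at 1389 and 1088 CPM in Treg-depleted libraries A and B, against 248 and 187 CPM in Treg-sufficient libraries A and B (2.51, SE 0.28, edgeR adjusted p = 0.0170). Etv5, a transcription factor downstream of RAS-ERK, was at 145 and 112 CPM in Treg-depleted libraries A and B, against 56.6 and 59.2 CPM in Treg-sufficient libraries A and B (1.15, SE 0.19, edgeR adjusted p = 0.0485). The call of Egr1 was lost without Treg-sufficient library B, and that of Etv5 was kept without Treg-depleted library B and lost without any other single library. Without Treg-sufficient library C or D of experiment 2 the value of Etv5 was 1.165. Myc, a growth regulator, had 1.36 (SE 0.27, edgeR adjusted p = 0.0759). Egr1 and Fos are also on the immediate early list, and all these genes answer to other signals as well as to EGFR.

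Some marker sums also differed between the groups of experiment 1, without overlap. Those of follicle and basal keratinocytes, melanocytes, T cells, Treg cells, macrophages and Langerhans cells, mast cells and neutrophils overlapped. With 2 libraries against 2, both Treg-depleted libraries lay below both Treg-sufficient libraries in 20.7% of all genes and above in 16.4%. Of all genes, 48.7% had positive values within experiment 1, with a median of -0.01, and 0.687% were called. Summed markers of suprabasal epidermis were at 626 and 1071 CPM in Treg-depleted libraries, against 1583 and 1832 CPM in Treg-sufficient libraries (0 of 6 tested markers positive, median log2 fold change -1.22). Fibroblast markers summed to 29.4 and 30.3 CPM in Treg-depleted libraries, against 43.8 and 100.5 CPM in Treg-sufficient libraries (1 of 7 positive, median -1.59). Immediate early genes summed to 6286 and 8906 CPM in Treg-depleted libraries, against 725 and 2317 CPM in Treg-sufficient libraries (10 of 10 positive, median 2.46). Sums for Schwann cells (at most 17.7 CPM in Treg-depleted and at least 18.1 CPM in Treg-sufficient libraries), endothelial cells (at most 2.26 and at least 3.96 CPM) and the sebaceous gland (at most 356.5 and at least 356.9 CPM) were also lower in both Treg-depleted libraries. None of the suprabasal, fibroblast, Schwann cell, endothelial or sebaceous markers was called there, and their part in the values of the regulators and of the ERK-responsive genes was not tested.

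In experiment 2 the ERK-responsive list had a median of 0.24 and 0 called genes, with 0% of all genes called. Between experiments Ccnd1, which encodes cyclin D1, averaged 262 ± 19.7 CPM in experiment 2 and 148 ± 44.3 CPM in experiment 1 and rose (0.85, SE 0.17, edgeR adjusted p = 0.0491). That call was kept without Treg-sufficient library A and lost without any other single library (adjusted p up to 0.157). Between conditions 0 genes of any of the 5 lists were called, with 0% of all genes called.

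**Figure D4:**
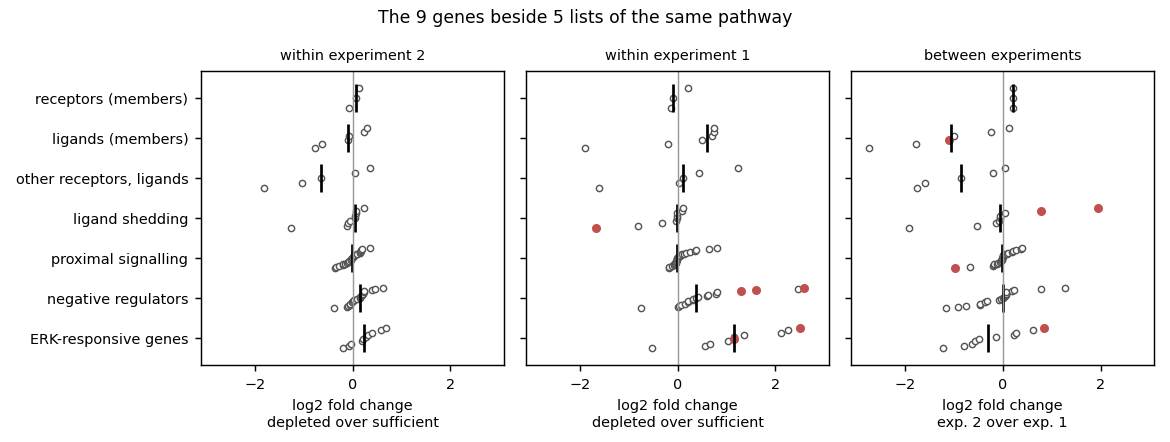
Log2 fold changes of the 9 genes, as receptors and ligands, and of the tested genes of 5 pathway lists, within experiment 2, within experiment 1 and between experiments; red points have an edgeR adjusted p under 0.05 and black bars mark the median. The red points of the negative regulators and ERK-responsive genes lie to the right within experiment 1 (1.15 to 2.58). No receptor or ligand point is red there, where 0.687% of all genes were called.

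Genes whose levels ran most like those of each gene over the 8 libraries were ranked by Pearson's r of log2 CPM among 12958 genes. These values are descriptions with no p, since the 8 points share library depth and experiment and the highest of 12958 values is high by selection. Egfr ran most like Nol4l (r = 0.987), Erbb2 like Cnot1 (r = 0.984) and Erbb3 like Rnf19a (r = 0.972). Among the ligands, Areg ran most like mt-Nd4, a mitochondrial subunit of respiratory complex I (r = 0.967), with mt-Nd2 of the same complex next (r = 0.965). Tgfa ran most like Xbp1, a transcription factor of the secretory pathway (r = 0.978), and Epgn like Idh3b, a subunit of a mitochondrial dehydrogenase (r = 0.980). Ereg ran most like Gm16279 (r = 0.971) and Hbegf like Tha1 (r = 0.970). None of these genes is itself a receptor or ligand of the family, and Btc was too low to be ranked.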

How the data were processed

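RNA of 8 libraries was sequenced. The authors deposited raw read counts per gene, with no normalization. The kit was TruSeq Stranded mRNA, per the labels' protocols. GRCm38.p4 is the build in the submitters' processing notes, which name DESeq2, HTSeq, SAMtools and TopHat2 (version 2) as tools. No source used here gives the strand setting or the annotation release. Reads aligned to several places (26.2 to 30.6% of those listed), in no gene (6.63 to 10.8%) or in several genes (2.72 to 3.01%) stood in separate tallies that entered neither library sizes nor tests.

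Symbols, coordinates and exon lengths came from GENCODE M21 (GRCm38), which paired 45229 of 46078 identifiers with a symbol. Promoters came from RefSeq.

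In R 4.3.3, edgeR 4.0.16 (filterByExpr by the 4 groups of condition and experiment, minimum count 10, TMM factors, quasi-likelihood F-test, Benjamini-Hochberg adjustment, threshold 0.05) was fitted to all genes. A model with terms for experiment and condition gave the differences between conditions and between experiments. A model with 4 groups gave the effects within each experiment and the interaction. Levels are CPM on TMM-scaled totals, except marker sums, Xist and Y-linked values, which use unscaled totals. RPKM divides CPM by merged exon length. The steps were tested on simulated counts. None of the 28 pairs of libraries agreed within sampling noise.

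Libraries of a letter deviated together from the condition means (r from 0.180 to 0.399), which includes the experiment they share. From the group means within an experiment the correlation was -0.184 in experiment 1 and -0.218 in experiment 2, which gives no sign of pairing by letter. With 2 libraries a group, the letters of an experiment share a single value, which cannot exclude pairing.

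The members and lists were chosen with earlier results of these data known. All 9 genes were named in every comparison. From the lists, 11 fixed genes and those called were named, with Fos as a shared member and Nrg3 and the genes leading marker sums after their values were seen. DESeq2 1.42.0, limma-voom (limma 3.58.1), other factors, no filter, a block by letter and left-out libraries were alternatives. A filter by condition and a crossed pairing of letters were added after seeing the data.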

Additional observations from a re-analysis of the deposited data

Results flagged for a closer look

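In 5 of 36 groups of 4 libraries examined, 1 library lay far from the other 3 by Dixon's ratio, the gap to the nearest library divided by the range. Chance alone puts about 1 in 20 groups past its critical value, and groups of a gene share libraries. Areg in Treg-depleted libraries had library B at 20.2 CPM and the others at 1.28 to 3.0 CPM (ratio 0.909). Ereg in Treg-depleted libraries had library C at 2.43 CPM and the others at 0.852 to 1.09 CPM (ratio 0.850). Ereg in experiment 1 had Treg-sufficient library A at 5.82 CPM and the others at 0.920 to 1.62 CPM (ratio 0.857). Hbegf in experiment 1 had Treg-depleted library B at 22.9 CPM and the others at 9.20 to 10.2 CPM (ratio 0.926). Epgn in Treg-sufficient libraries had library A at 49.3 CPM and the others at 13.9 to 16.2 CPM (ratio 0.934). The receptors, Tgfa and Btc gave none.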

How the results depend on the processing

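Of 801 values of the 9 genes under alternatives, 719 kept their direction and side of the threshold, 61 changed sign, 12 gained and 9 lost a call. Tgfa between experiments was the only call among the main values, so nearly all values started uncalled. Leaving out a library of an experiment also hardly touches values within the other. The count of kept values therefore says little about robustness. Scaling moved the median of all genes by at most 0.03 on the log2 scale. The cause of the changes below was not tested. The 10 pathway gene calls were kept by DESeq2, by limma-voom and without the filter. The 6 within experiment 1 were lost with a block by letter (adjusted p 0.0566 to 0.138) and the 4 between experiments without both B libraries (0.189 to 0.223).

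Without the filter on low counts edgeR called 820 genes between conditions, 132 within experiment 2, 1152 within experiment 1, 534 for the interaction and 2443 between experiments, with 1, 0, 3, 1 and 4 of the 9 genes. DESeq2 called 87, 3, 722, 181 and 2164, with 4 of the 9 between experiments and 0 elsewhere. Main totals were 0, 0, 122, 0 and 277. Without both B libraries they were 585 within experiment 1, 183 for the interaction and 3 between experiments. Without the 2 libraries with the fewest genes they were 1 between conditions, 646 within experiment 1 and 2 between experiments, with 0 of the 9. With a block by letter (a paired fit) 2 genes were called within experiment 1 and 0 of the 9 in any comparison of conditions. Crossing the letters, as the negative correlations prompted, gave 473 within experiment 1 and 51 for the interaction. Leaving out single libraries gave 0 to 1 genes between conditions, 29 to 499 within experiment 1, 0 to 46 for the interaction and 0 to 723 between experiments, with 0 to 1 of the 9 genes.

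Log2 fold changes that changed sign without both B libraries lay between conditions (-0.50 for Epgn), within experiment 1 (0.18 for Egfr, 0.0028 for Erbb2, -0.090 for Hbegf and -0.26 for Epgn), for the interaction (-0.044 for Egfr, -0.066 for Erbb2 and 0.39 for Hbegf) and between experiments (-0.27 for Ereg). Those without the 2 libraries with the fewest genes lay between conditions (-0.027 for Hbegf and -0.064 for Epgn), within experiment 2 (-0.036 for Egfr, -0.15 for Erbb3, 0.69 for Areg, -0.034 for Hbegf, -0.041 for Tgfa, 0.34 for Btc and -0.0038 for Lrig1), within experiment 1 (0.041 for Egfr and -0.019 for Hbegf) and for the interaction (-0.077 for Egfr and -0.16 for Erbb2). With single libraries left out, ranges that crossed 0 lay between conditions (-0.063 to 0.096 for Egfr, -0.91 to 0.22 for Areg, -0.052 to 0.47 for Btc and -0.33 to 0.28 for Epgn), within experiment 2 (-0.62 to 0.71 for Areg, -0.76 to 0.41 for Btc, -0.021 to 0.32 for Egfr, -0.13 to 0.34 for Erbb3, -0.019 to 0.74 for Hbegf, -0.027 to 0.56 for Tgfa and -0.17 to 0.069 for Erbb2), within experiment 1 (-2.13 to 0.62 for Areg, -0.28 to 0.041 for Egfr, -0.019 to 1.23 for Hbegf and -0.037 to 1.40 for Btc), for the interaction (-0.72 to 2.03 for Areg, -0.053 to 0.19 for Erbb2, -0.93 to 0.32 for Hbegf, -0.086 to 1.76 for Ereg and -0.36 to 0.11 for Erbb3) and between experiments (-0.34 to 0.74 for Ereg and -0.52 to 0.0041 for Btc).

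Ereg and Btc had few counts and wide SEs, so small changes were not detectable at this depth. With 2 libraries a group, values within an experiment turn on single libraries. RPKM depends on exon lengths that may differ from those used for counting. With the longest transcript length Hbegf averaged 3.33 RPKM in place of 1.99.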
